A study of Mus musculus and Homo sapiens with 22 samples.

Results

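The 7 genes described here encode the main folding helpers of the endoplasmic reticulum (ER), the compartment in which secreted and membrane proteins are made: Canx, Calr, Hsp90b1, Hspa5, Pdia3, Pdia4 and Pdia6. They were taken by name from 17492 protein-coding genes with a known strand. The rule used no measured value, but earlier results of these data were known when the genes were chosen. The readout was the binding of Lin28A along these genes in Mettl3 knockout (KO) and Mettl3 wild-type (WT) mouse embryonic stem cells. Over the 7 genes there were 90 of the 11285 KO sites and 90 of the 10990 WT sites.

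Lin28A is an RNA-binding protein of stem cells. It is best known for blocking the maturation of let-7 microRNAs, and it also binds many mRNAs, among them mRNAs translated at the ER. Mettl3 catalyses the addition of N6-methyladenosine (m6A) to mRNA. Proteins that enter the ER are folded there by lectin chaperones that hold sugar-bearing chains, by Hsp70 and Hsp90 family members, and by disulfide isomerases that form and rearrange bonds between cysteines.

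The KO and the WT group were each 1 irCLIP sample of the V6.5 mouse embryonic stem cell line, grown with LIF on gelatin, crosslinked with ultraviolet light and precipitated with an antibody against Lin28A. irCLIP sequences the RNA fragments that stay crosslinked to the precipitated protein. The labels do not say how the knockout was made, or how many clones or cultures stand behind each list. The 2 anti-GFP control samples and the 18 structure-probing samples of the series were not analysed here. With 1 list per genotype there is no replicate check, so no test between genotypes was possible. Every interval below covers only counting or, for medians, the spread between sites.

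The KO list held scores of 12 and above with a median of 19, and the WT list scores of 13 and above with a median of 20. A score is the authors' own value for a site, was read only within its list, and for sites wider than 50 nt is a mean per 50-nt step, since score times number of steps was whole (within 0.01) for 99.8% of wide sites in each list. Read depth is not given. Mettl3 itself held no site in either list on either strand, and a site list does not measure a transcript's level, so the genotype labels could not be checked. Of 13 stem cell markers, the 11 with a known strand all held sites, with 64 KO and 53 WT sites, and Dppa5a and Sall4 held sites counted on either strand. No site fell on the 8 fibroblast or 5 early endoderm markers in either list.

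All 7 chaperone genes carried Lin28A sites in KO and in WT cells, and 6 of the 7 were among the densely bound genes. The number of sites per gene ranged from 3 to 22 in the KO list, with a median of 13, and from 3 to 21 in the WT list, with a median of 12. Most genes held none: 16.2% of protein-coding genes with a known strand had a KO site and 15.2% had a WT site, and among those the median was 1 site in each list. Every site over the 7 genes lay on the strand of the gene, and the opposite strand held no site in either list.

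**Figure D1:**
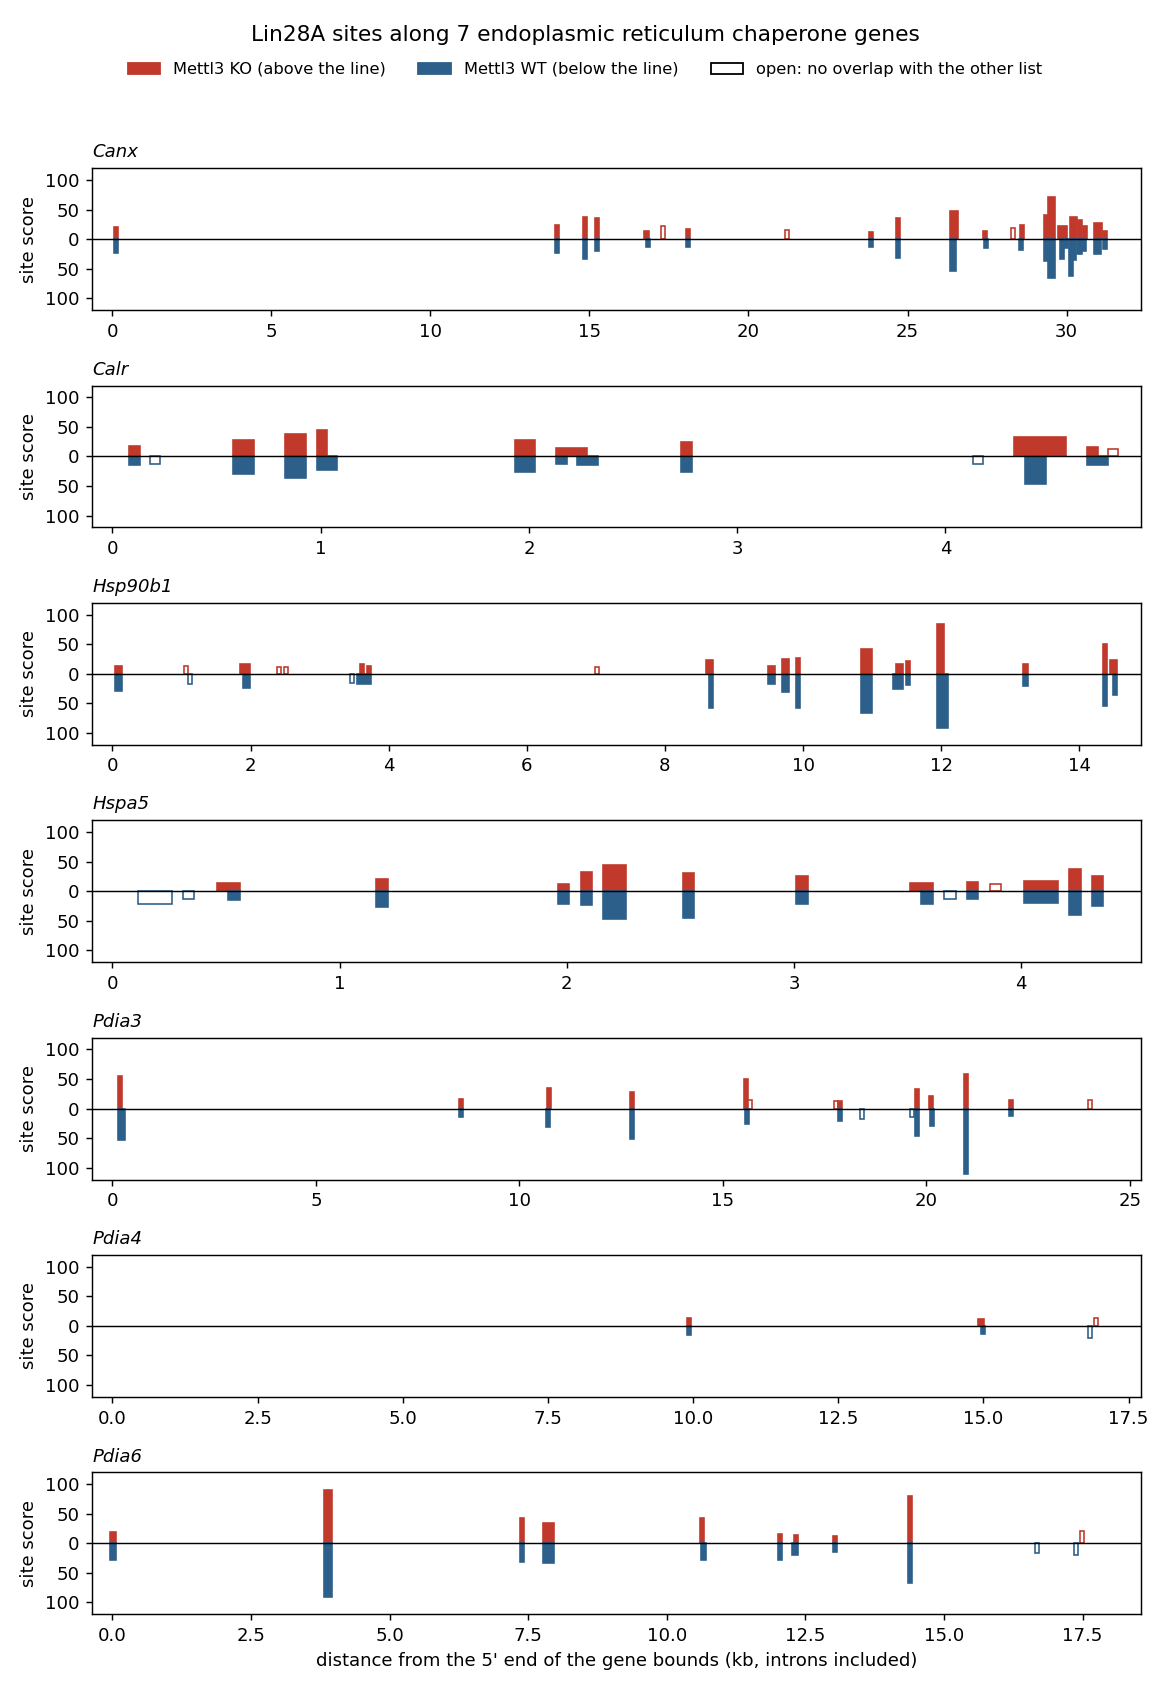
Lin28A sites along each gene, from the 5′ to the 3′ end of its bounds (x axis, kb, introns included), with the score of each site (y axis) drawn upward for Mettl3 KO and downward for Mettl3 WT; narrow sites are widened to stay visible, and open bars overlap no site of the other list. The highest KO and WT bars overlap in Canx, Hsp90b1, Hspa5, Pdia3 and Pdia6 and not in Calr, 2 open WT bars stand at the 5′ end of Hspa5, and Pdia4 has 3 low sites in each list.

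Canx encodes calnexin, the membrane-bound lectin chaperone. It had 22 KO and 21 WT sites, a KO share of 51.2% (exact 95% interval 35.5 to 66.7), which ranked it 9th by KO sites and 14th by WT sites among the protein-coding genes. The gene spans chr11:50293957-50325673 on the minus strand of mm10, 31717 nt with introns. Its sites crowded toward the 3′ end: in the last 2500 nt the KO list had 8 sites covering 1250 nt, and the WT list had 10 sites covering 950 nt. The highest score of each list fell on the same 200 nt, chr11:50296051-50296250, with a score of 71 in KO and 65.75 in WT. A separate site lay near the 5′ end, 74 to 173 nt into the gene, with scores of 21.0 in KO and 23.5 in WT. All 21 WT sites overlapped a KO site. The 3 KO sites that overlapped no WT site had scores of 22, 16 and 18.5 and lay upstream of the crowded end. In that end, 2 broad KO sites each overlapped 2 narrower WT sites.

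**Figure D2:**
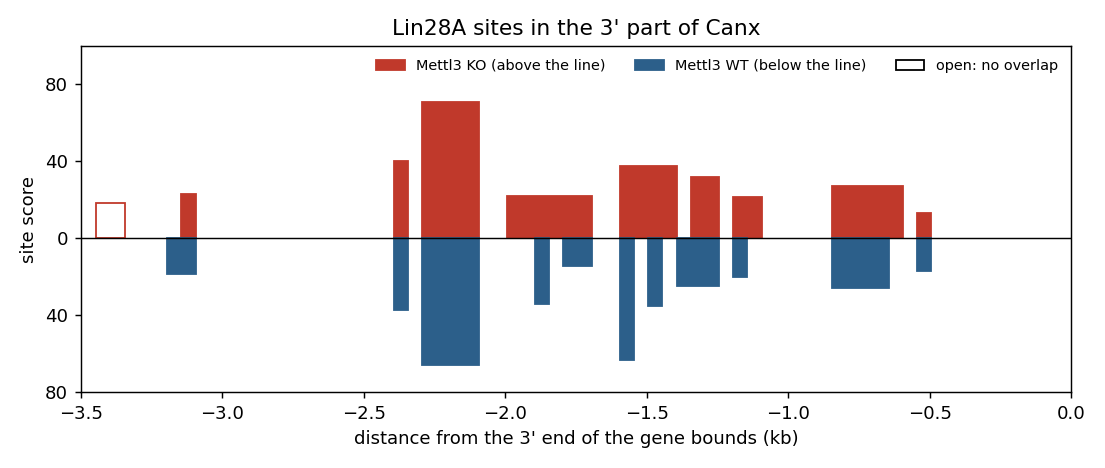
The 3′ part of Canx (x axis, kb from the 3′ end of the gene bounds), with site scores (y axis) upward for Mettl3 KO and downward for Mettl3 WT and bars drawn to width. Both lists peak over the same 200 nt, with scores of 71 in KO and 65.75 in WT, and the open KO bar overlaps no WT site.

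Calr encodes calreticulin, the soluble lectin chaperone and calcium store protein of the ER. This short gene (chr8:84842088-84846931, minus strand, 4844 nt) had 10 KO and 12 WT sites, a KO share of 45.5% (24.4 to 67.8), and sites covered 19.6% of it in each list. Here the leading site differed between the lists. In KO it was the site 982 to 1031 nt from the 5′ end, with a score of 44, where the overlapping WT site scored 23. In WT it was the site 4382 to 4481 nt from the 5′ end, with a score of 46.5, which lay inside a 250-nt KO site with a score of 33.6. A mean over a wider stretch is not comparable with one over a narrower one, and the difference was not tested.

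Pdia3 encodes ERp57, the disulfide isomerase that works with calnexin and calreticulin. It had 13 KO and 12 WT sites over 24786 nt (chr2:121413902-121438687, plus strand), a KO share of 52.0% (31.3 to 72.2). Its highest score in each list lay at 20950 to 20999 nt from the 5′ end, with a score of 59 in KO and 111 in WT. The WT value was the highest score over the 7 genes. The site nearest the start, from 150 nt on, had scores of 54.5 in KO and 53 in WT. Catsper2, on the minus strand, overlaps the first part of Pdia3 with 1 KO and 1 WT site inside the shared stretch, and both sites were on the plus strand.

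Hspa5 encodes BiP, the Hsp70 chaperone of the ER and a classic target of the unfolded protein response. It had the most sites per kb of gene among the 7, with 2.93 per kb in KO and 3.38 in WT, from 13 KO and 15 WT sites over 4440 nt (chr2:34772090-34776529, plus strand). Its KO share was 46.4% (27.5 to 66.1). The leading site was the same in both lists, 2162 to 2261 nt from the 5′ end, with scores of 44.5 in KO and 47.5 in WT. At its 5′ end the lists differed. The first KO site began 462 nt into the gene, and the first WT site spanned 112 to 261 nt with a score of 21.3, with another WT site at 312 to 361 nt with a score of 13. These 2 WT sites overlapped no KO site, and the KO list begins at a score of 12, so a weaker KO signal there would not be listed. Rabepk, on the minus strand, overlaps the 3′ part, where 8 KO and 8 WT sites lay, all on the plus strand.

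Hsp90b1 encodes GRP94, the Hsp90 of the ER. It had 19 KO and 16 WT sites over 14604 nt (chr10:86690841-86705444, minus strand), a KO share of 54.3% (36.6 to 71.2) and the highest ratio of KO to WT sites of the 7, at 1.19. The leading site of each list began 11945 nt from the 5′ end, with a score of 85 in KO and 91.3 in WT. Of its 19 KO sites, 4 overlapped no WT site, and their scores were 12 or 13, at the low end of the KO list. Sites at or above the upper quartile of their own list, a score of 30 in KO and 32 in WT, numbered 3 in KO and 6 in WT. So Hsp90b1 had more sites in KO, and fewer there at or above that quartile. Part of this count met unlike widths. The WT sites scoring 57 and 36 were 50 nt wide, and overlapped 100-nt KO sites scoring 23.5 and 23. Such means are not comparable. Another pair, scoring 58 in WT and 27 in KO, was 50 nt wide in both lists. The difference was not tested.

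Pdia4 encodes ERp72, a disulfide isomerase, and was the most sparsely bound of the 7. It had 3 KO and 3 WT sites over 17372 nt (chr6:47796141-47813512, minus strand), with scores from 12.5 to 13 in KO and from 13 to 21 in WT, and a KO share of 50% (11.8 to 88.2). None reached the upper quartile of its list. One site, present in both lists at chr6:47803551-47803600 with scores of 13 in KO and 16 in WT, ran into the hairpin of the microRNA gene Mir704, which lies inside Pdia4 on the same strand. Reads there could come from either RNA. The hairpin (GRCm38.p6, chr6:47803576-47803652, minus strand) is shown to place the site on it. Capitals mark the 25 nt that the Lin28A site covers, at the 3′ end of the hairpin, and, in the mature miR-704, the 11 nt it covers.
Mir704 hairpin: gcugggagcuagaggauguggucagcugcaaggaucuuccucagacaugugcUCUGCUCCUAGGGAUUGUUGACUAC
mmu-miR-704: agacaugugcUCUGCUCCUAG

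GGAG, the word that Lin28 proteins are known to recognise in let-7 precursors, occurs 1 time in this hairpin, near its 5′ end and outside the covered part. UGUG occurs 2 times, outside the covered part, and AAGNNG (N for any base) does not occur. Searched in the same way on the RNA strand, 44.5% of the 1005 mouse hairpins in the RefSeq table hold GGAG, 44.9% hold UGUG and 28.3% hold AAGNNG, so a match is common.

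Pdia6 encodes P5, a further disulfide isomerase. It had 10 KO and 11 WT sites over 18197 nt (chr12:17266589-17284785, plus strand), a KO share of 47.6% (25.7 to 70.2). The leading site of each list was the same 150 nt, 3813 to 3962 nt from the 5′ end, with a score of 89.3 in KO and 91.3 in WT. The next strongest, at 14363 to 14412 nt, had scores of 80 in KO and 68 in WT. Its first site began 38 nt before the annotated gene start, with scores of 19.5 in KO and 29 in WT. The stretch of that site up to the 30th transcribed base (RefSeq, GRCm38.p6, chr12:17266551-17266618, plus strand) is shown because the site crosses the start. Lower case is upstream of the annotated start and capitals are downstream.
Pdia6 start: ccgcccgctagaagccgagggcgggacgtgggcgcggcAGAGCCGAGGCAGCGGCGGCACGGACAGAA

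This stretch is 76.5% G and C and holds AAGNNG 1 time, upstream of the start, and GGAG and TGTG 0 times on the RNA strand. In the same 68 nt around 32851 annotated mouse starts of the RefSeq table, AAGNNG occurs in 28.4%, GGAG in 40.9% and TGTG in 25.1%. Sites are listed in steps of 50 nt, so the position of a crosslink within them is not known.

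The number of sites on these genes was similar in KO and WT. The ratio of KO to WT sites lay between 0.833 (Calr) and 1.19 (Hsp90b1). None of the 7 genes had 1.5 times or more as many KO as WT sites, against 19.3% of the 784 protein-coding genes that had 5 or more sites when the lists were added. None had 1.5 times or more as many WT as KO sites, against 20.2% of the same genes. All of the intervals of the KO shares include equal numbers. They count KO and WT sites as independent, though most sites overlapped the other list, so this says little about equality. With sites at or above the upper quartile alone, 6 of the 7 genes had 5 or more sites, and 2 of these passed this ratio. They were Hsp90b1 with 3 KO and 6 WT sites and Calr with 3 and 2. With 50-nt sites alone Pdia3 (12 and 7) and Pdia4 (2 and 3) passed it. These counts are small, and the share of all genes passing in these 2 settings was not taken. Genes with more sites have less counting error in the ratio, and sites found in both lists draw the ratio toward 1, so the 784 genes are not matched to the 7 in precision.

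**Figure D3:**
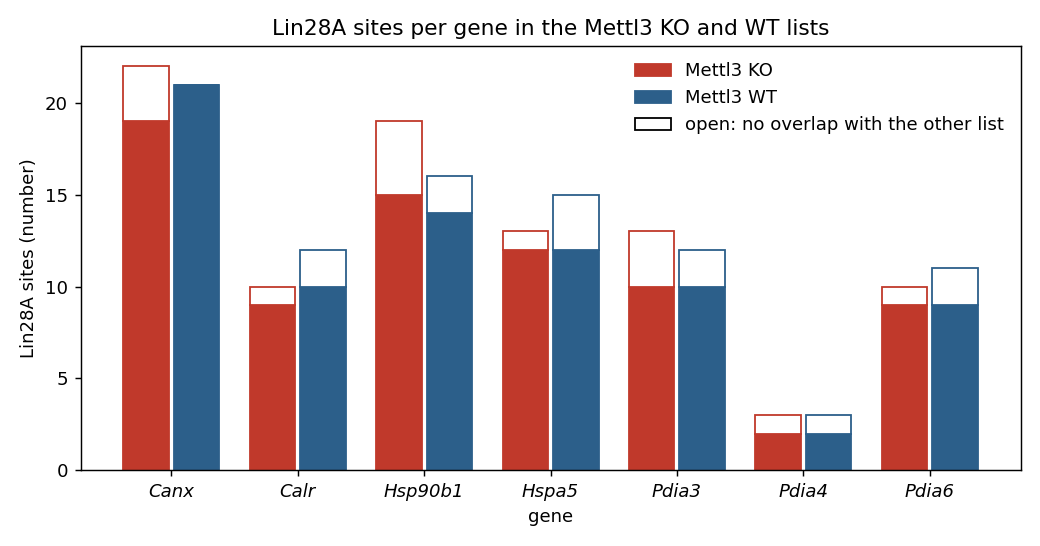
Number of Lin28A sites (y axis) in each of the 7 genes (x axis), Mettl3 KO left and Mettl3 WT right, with the open part counting sites that overlap no site of the other list. The largest pairs are Canx with 22 KO and 21 WT sites and Hsp90b1 with 19 KO and 16 WT sites, and Pdia4 has 3 in each list.

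The positions were shared as well. A WT site overlapped 76 of the 90 KO sites by at least 1 nt on the same strand, 84.4% (75.3 to 91.2), against 72.9% of all KO sites. A KO site overlapped 78 of the 90 WT sites, 86.7% (77.9 to 92.9), against 75.1% of all WT sites. Merged over the lists, the sites formed 101 separate loci, of which 75 were in both lists, 14 in KO only and 12 in WT only. Sites of a gene are not independent, so the intervals are too narrow.

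Score and width moved with sharing. All 28 KO and all 27 WT sites at or above the upper quartile of scores overlapped the other list, where the same sites of the whole lists reached 98.6% for KO and 98.9% for WT. Among the weaker sites, 77.4% of 62 KO sites and 81.0% of 63 WT sites were shared, against 64.1% and 66.7% of the weaker sites of the whole KO and WT list. The chaperone sites were also wider: 60.0% of KO and 57.8% of WT sites were 50 nt wide, against 85.5% of all KO and 86.0% of all WT sites. Among 50-nt sites alone, 75.9% of 54 KO sites and 80.8% of 52 WT sites were shared, against 69.5% and 71.9% in the whole lists. In 310 other protein-coding genes with 10 or more sites, KO and WT added, 77.8% of KO and 74.5% of WT sites were shared. Of the sites in these 310 genes, 75.5% in KO and 74.7% in WT were 50 nt wide, so part of the difference in width went with dense binding.

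The sites that differed had lower median scores than the shared ones, though some reached the median of their list, 19 in KO and 20 in WT. The 14 KO sites without a WT partner had scores from 12 to 22 with a median of 13, and the 12 WT sites without a KO partner had scores from 13 to 21.3 with a median of 15.5. All were below the upper quartile of their list, and 3 of the KO and 1 of the WT sites lay within 50 nt of a site in the other list. The shared sites had median scores of 23.5 in KO and 25.9 in WT.

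The leading site was kept in most of the genes. In 5 of the 6 genes with at least 5 sites in each list, the highest-scoring KO site overlapped the highest-scoring WT site, Calr being the exception. Over all 265 genes with at least 5 sites in each list the same was true of 70.6%, so 5 of 6 is near the background.

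Pooled over the 7 genes, sites leaned toward the 3′ end, with 52.2% of KO and 53.3% of WT sites in the last 33.3% of the gene. By the median position and the last 20%, the lean was no stronger than over all protein-coding genes. The median position, counted from 0 at the 5′ end to 1 at the 3′ end with introns included, was 0.673 in KO and 0.682 in WT, against 0.732 and 0.710 over KO and WT sites in all protein-coding genes. The last 20% of the gene held 35.6% (25.7 to 46.3) of KO and 36.7% (26.8 to 47.5) of WT sites, against 43.1% and 41.4%. Canx was the most 3′-weighted of the genes with 10 or more sites in each list, with medians of 0.850 in KO and 0.901 in WT, and Calr the least, with 0.432 and 0.427. Exons are not in the gene table used, so sites in exons, introns and untranslated parts could not be told apart.

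Sites close to the annotated start were common in these genes. The first 300 nt were read in the 6 genes with 10 or more sites, KO and WT added. They held a site in 5 of these genes in KO (all but Hspa5) and in 6 in WT. Among the 316 protein-coding genes with 10 or more sites the shares were 30.4% and 38.0%. The start sites of Canx, Calr, Hsp90b1 and Pdia6 scored between 14 and 21 in KO and between 13 and 29.5 in WT. That of Pdia3 scored 54.5 and 53. The lowest was a further WT site of Calr, at 182 to 231 nt, which overlapped no KO site. The WT start site of Hspa5 scored 21.3. At or above the median score of the list, 3 genes in KO and 5 in WT had a site in this window, and at or above the upper quartile, or with 50-nt sites alone, 1 gene in each list had one. At the other end, a site lay within the last 1000 nt of 6 of the 6 genes in KO and of 5 in WT, against 66.5% and 64.2%. Over all 7 genes this was 7 in KO and 6 in WT, and at or above the upper quartile it was 3 in KO and 3 in WT. Within the last 500 nt, 5 of the 7 genes had a KO site and 4 a WT site. The counts by score, by width, over all 7 genes and within 500 nt have no matching share over other genes. The exception at 1000 nt was Pdia3, whose last WT site ended 2687 nt before the gene end, where a KO site with a score of 14 ended 737 nt before it. The windows of 300 and 1000 nt were chosen after the positions were seen. The 6 genes had from 21 to 43 sites, KO and WT added, and the 316 genes are not matched to them in site number. Short genes such as Calr and Hspa5 have more of their length inside such windows: the median length of the other 310 genes was 26561 nt, and 6 of the 7 chaperone genes were shorter than that.

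With all sites as deposited, the median score of the chaperone sites was somewhat higher than that of protein-coding genes in general. Their median score was 21.75 in KO and 23.5 in WT, against 18 and 19 over KO and WT sites in all protein-coding genes. In the 310 other densely bound genes it was 18 in KO and 20 in WT. With 50-nt sites alone, the chaperone median was 17.5 in KO and 21 in WT. The KO value was then no higher than the 18 of all protein-coding genes, whose median over 50-nt sites alone was not taken. The upper quartile of the list was reached by 31.1% of the KO and 30.0% of the WT sites, against 21.5% and 22.1%. The level of each mRNA was not measured here.

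The median number of sites per gene was higher over the 7 chaperones than over each of the other ER lists, which were also chosen with earlier results known, and single genes overlapped. Pdia4, with 3 KO and 3 WT sites, lay below several genes named here, and Ganab had more KO sites than Calr or Pdia6. Other folding and disulfide genes of the ER had sites in 9 of 19 genes, 17 KO and 19 WT sites in all, with medians of 0 in both lists. P4hb, the founding disulfide isomerase, had 5 KO and 5 WT sites, the prolyl isomerase Ppib had 4 and 5, and Txndc5 had 3 and 4. Glycoprotein quality control and degradation genes had sites in 10 of 17, with 24 KO and 18 WT sites and medians of 1 in KO and 0 in WT. Their leader was Ganab, the catalytic subunit of glucosidase II, with 11 KO and 8 WT sites, followed by the cargo lectin Lman2 with 3 and 3, Prkcsh, the other glucosidase II subunit, with 2 and 3, and the segregase Vcp with 3 and 1.

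Translocon and oligosaccharyltransferase genes, which bring chains into the ER and add sugars, had sites in 8 of 23, with 29 KO and 32 WT sites and medians of 0. Rpn1 had 6 KO and 6 WT sites, Stt3a had 5 and 5, and Ssr3 had 6 and 4. Regulators of the unfolded protein response had sites in 3 of 10, with 13 KO and 8 WT sites and medians of 0. Mbtps1, the protease that cleaves the sensor Atf6, had 8 KO and 5 WT sites, and the transcription factor Atf4 had 4 and 3.

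Some genes had no strand in the table and were counted on either strand. Among them, Sec61a1, the pore of the translocon, had 7 KO and 7 WT sites, Ssr2 had 6 and 5, Atf6 had 6 and 6, Ppp1r15b had 5 and 2, Hyou1, an ER relative of Hsp70, had 5 and 2, and Lman1 had 1 and 3.

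Relatives of the chaperones outside the ER held sites as well. With a known strand, 10 of 16 had a site, with 50 KO and 59 WT sites and medians of 2 in both lists. Of these sites, 84% in KO and 71.2% in WT overlapped the other list, next to 84.4% and 86.7% for the 7 chaperones. The overlap of KO sites was thus alike in both groups of genes, and that of WT sites was lower in the relatives. This difference was not tested. Hspa4 had 19 KO and 18 WT sites, and the mitochondrial chaperonin Hspd1 had 8 and 11. Counted on either strand, the cytosolic Hsp90ab1 had 13 KO and 14 WT sites, next to 19 and 16 for its ER relative Hsp90b1, and the mitochondrial Hspa9 had 16 and 17, next to 13 and 15 for Hspa5. Genes bound as densely as the ER chaperones were thus also found among their relatives outside the ER.

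**Figure D4:**
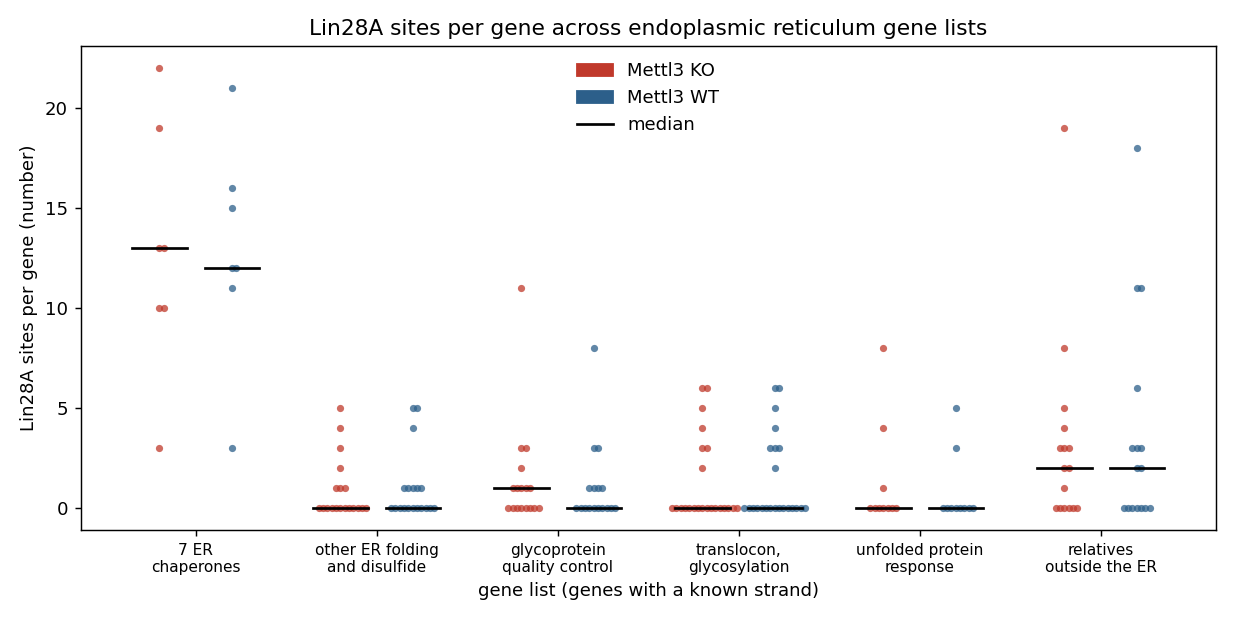
Lin28A sites per gene (y axis) for the 7 ER chaperones and 5 other gene lists (x axis), Mettl3 KO left and Mettl3 WT right, each point a gene with a known strand and each black line a median. The 7 chaperones have medians of 13 in KO and 12 in WT, and the medians of the other lists lie between 0 and 2.

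The genes whose pattern was closest to that of Canx were Huwe1, Srrm2 and Ddx3x, at distances of 0.231, 0.245 and 0.335. The distance was taken over 4 values, log2 of KO and of WT sites plus 1 and the mean position in each list times 4, among 269 genes with at least 5 sites in each list. Huwe1 had 24 KO and 20 WT sites, Srrm2 19 and 19, and Ddx3x 19 and 22.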

How the data were processed

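Lin28A irCLIP sites of 1 Mettl3 KO and 1 Mettl3 WT sample were used. Per the submitters' processing notes, the tools were Bowtie2 and UMI-tools and the mouse build mm10. How sites were called, and against which control, is not given. The authors deposited a score for each stranded site, whose bounds run in 50-nt steps. The p-value deposited by the authors beside it was not used.

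Gene bounds came from RefSeq (GRCm38.p6, the assembly behind mm10) and strands from the RefSeq start table, which covers 17492 of 21900 protein-coding genes. A site counted for a gene when it overlapped the bounds by at least 1 nt on the gene's strand. A site over several genes counted for each. Gene bounds include introns. How reads from near-identical gene copies were placed is not known. Intervals of shares are exact (Clopper-Pearson) at 95%, those of medians were taken from the ranked values at 95%, and no test between samples was run. Python 3.11.15 and SciPy 1.17.1 were used, and counting, sharing and positions were tested on simulated lists. The icSHAPE files were not used, since no table pairs their transcripts with genes. The genes named in each comparison list are the 4 with the most sites over both lists, ties included. The members and gene lists were chosen with earlier results of these data known. The end windows, the overlap of leading sites, the merged loci, the 310 densely bound genes and the splits by score and width in sharing were added after the data were seen. Genes without a strand entered the naming rule by their sites on either strand.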

Additional observations from a re-analysis of the deposited data

How the results depend on the processing

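Site numbers followed the score threshold. At or above the median score of each list the 7 genes had 50 KO and 58 WT sites and the comparison lists 61 and 56, where all sites gave 133 and 136. At or above the upper quartile the 7 genes had 28 KO and 27 WT sites and the comparison lists 24 and 26. With 50-nt sites only, the 7 genes had 54 KO and 52 WT sites. With genes of unknown strand added on either strand, an alternative chosen after the data were seen, the comparison lists had 214 KO and 212 WT sites. The share of sites overlapping the other list (84.4% in KO, 86.7% in WT) was 96.0% in KO and 94.8% in WT above the median score, 100% in KO and 100% in WT at or above the upper quartile, and 51.1% in KO and 51.1% in WT when only identical sites counted. The median score was 33 in KO and 30.75 in WT above the list median, and 41 in KO and 47.5 in WT at or above the upper quartile, which follows from the threshold. The last 10% of the genes held 23.3% of KO and 24.4% of WT sites and the last 33.3% held 52.2% of KO and 53.3% of WT sites. The order of KO and WT turned at or above the list median for the median score, the share overlapping and the sites of the comparison lists, and for the last of these also with genes of unknown strand added. The cause was not tested. Of the values that summarise the 7 genes or the lists, 28 moved and 64 stayed close to the reported one.

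A KO to WT ratio past 1.5 in either direction was met by none of the 7 genes with all sites. At or above the upper quartile it was met by 2 of the 6 genes with enough sites (Hsp90b1 with 3 KO and 6 WT sites, Calr with 3 and 2). With 50-nt sites only it was met by 2 of the 7 (Pdia3 with 12 and 7, Pdia4 with 2 and 3). The share of all genes meeting it in these settings was not taken, and an even number of sites holds for the lists as deposited. A start site at or above the median score was found in 3 genes in KO and 5 in WT, and a 50-nt one in 1 gene in KO and 1 in WT. An end site at or above the upper quartile was found in 3 genes in KO and 3 in WT. The matching shares over other genes were not taken for these start and end counts. Positions along joined exons and sequence words inside most sites were not run, as no exons or genome were given. No paired analysis was possible because each genotype had 1 list. Read depth, which limits how weak a site could be listed, is unknown.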
